A study of Rattus norvegicus with 49 samples.

Results

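Metallothioneins and the proteins that regulate or move zinc were followed in rat liver through 5 genes, chosen by name from the 15154 gene symbols on the array: Mt1, Mt2A, Mtf1, Slc30a1 and Slc39a14. They were matched by the RefSeq accession of each probe, which gave 7 of the 30367 probes on the array. All 7 passed the filter on dim probes, as did 17661 probes in all. Mt2A and Slc39a14 had 2 probes each, and the brighter of them in the liver channel stands for the gene unless the dimmer is named.

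Liver RNA came from F344 rats of both sexes, an inbred strain, whose dosing by gavage began at 7 to 8 weeks of age and went on for 90 days, 5 days in each week. Controls received corn oil and the other rats received furan, a volatile food contaminant that the liver turns into a reactive dialdehyde, dissolved in that oil at 2, 0.5, 0.12 or 0.03 mg/kg. Each sex and dose made a group of 5 rats, each on its own array, except the males at 0.03 mg/kg with 4 arrays, so that 49 arrays on 8 slides were analysed. Every value below is a log2 ratio of liver RNA over a universal rat reference RNA, a common pool hybridised with it to the same spots, so that 0 means as much signal as the reference and a step of 1 means a doubling. The ratio of a probe can be compared between rats but not with the ratio of another probe.

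Metallothioneins are small proteins rich in cysteine that bind zinc and copper ions, buffer free zinc, trap cadmium and scavenge oxidants. In liver their genes are switched on by zinc through the zinc-sensing factor MTF-1, which binds metal response elements near the gene start, and also by glucocorticoids, interleukin-6, fasting and oxidative stress. Free zinc in the cell is lowered by exporters of the SLC30 family, of which ZnT1, made from Slc30a1, sits in the plasma membrane and is itself a target of MTF-1, and raised by importers of the SLC39 family, of which ZIP14, made from Slc39a14, brings zinc and iron into hepatocytes during inflammation.

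The 250 bases before the start of Mt1, Mt2A and Slc30a1 are shown because these are the members known as MTF-1 targets, and the metallothionein pair is where the values below differ most. Of the 5 members, 4 had an entry in the RefSeq promoter table of the GRCr8 assembly, the exception being Slc39a14. Capitals mark the core of the metal response element, TGCACNC or TGCGCNC, searched on both strands, and each run reads 5′ to 3′ on the strand of the gene.
Mt1, chr19:10832976-10833225, minus strand: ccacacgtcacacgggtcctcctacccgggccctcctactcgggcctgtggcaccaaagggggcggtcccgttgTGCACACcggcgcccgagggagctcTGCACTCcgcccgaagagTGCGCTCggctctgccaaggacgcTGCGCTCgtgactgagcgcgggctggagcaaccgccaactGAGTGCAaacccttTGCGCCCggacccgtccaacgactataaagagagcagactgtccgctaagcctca
Mt2A, chr19:10838709-10838958, minus strand: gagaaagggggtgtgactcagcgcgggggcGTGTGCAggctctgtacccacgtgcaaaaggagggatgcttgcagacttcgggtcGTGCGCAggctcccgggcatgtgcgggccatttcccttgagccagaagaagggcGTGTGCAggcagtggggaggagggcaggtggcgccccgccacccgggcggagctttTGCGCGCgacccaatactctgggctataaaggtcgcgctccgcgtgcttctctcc
Slc30a1, chr13:106021769-106022018, plus strand: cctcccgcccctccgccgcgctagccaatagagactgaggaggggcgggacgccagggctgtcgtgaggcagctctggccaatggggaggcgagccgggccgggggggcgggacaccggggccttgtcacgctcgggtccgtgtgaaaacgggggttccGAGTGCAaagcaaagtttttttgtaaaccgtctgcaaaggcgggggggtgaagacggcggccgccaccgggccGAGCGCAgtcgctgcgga
Mt1 held 6 separate matches, Mt2A 4 and Slc30a1 2, and those of Mt1 began between positions -176 and -55 from the start. Of 33469 rat promoters of this length, 20.6% held at least 1 such match, 3.99% at least 2, 0.128% at least 4 and 0.0239% at least 6. The core of the antioxidant response element, TGACNNNGC on either strand, was found once each in the Mt1, Mt2A and Slc30a1 windows, and 10.1% of the promoters held it. These are matches of letters, and binding was not measured. Mt1 and Mt2A lie next to each other on chromosome 19, with 4958 bases and 0 annotated genes between them.

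The hepatocyte markers were bright throughout: all 10 listed were measured, and on each array but the dim one described next all 10 were above background. The array of male 26 at 0.03 mg/kg stood apart, with 5.06% of its liver spots above background against 37.9% to 71.1% on the others. It stays in the fits below, and results that depend on it are given with and without it. Slides 5 and 6 hold 10 arrays of treated rats and no control, and slide was a fixed block in the fit. In whole liver RNA, a change in the number of cells of a type cannot be told apart from a change in the RNA per cell.

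Mt1 and Mt2A were higher in males given 2 mg/kg furan than in control males, and much lower in control males than in control females, so that at 2 mg/kg the ratios of the sexes lay in a shared range. Females showed no change of either gene that passed the test at any dose. Of the other members, Slc30a1 lay slightly lower in males at 2 mg/kg, and neither Mtf1 nor Slc39a14 was called in any comparison. How often groups separate fully over all probes was not counted, so non-overlap below only describes the arrays. A probe was called when its limma p, adjusted by Benjamini-Hochberg over all probes tested, was at most 0.05 and its change at least 1.5-fold. The plots of single arrays and of changes from controls give these values.

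**Figure D1:**
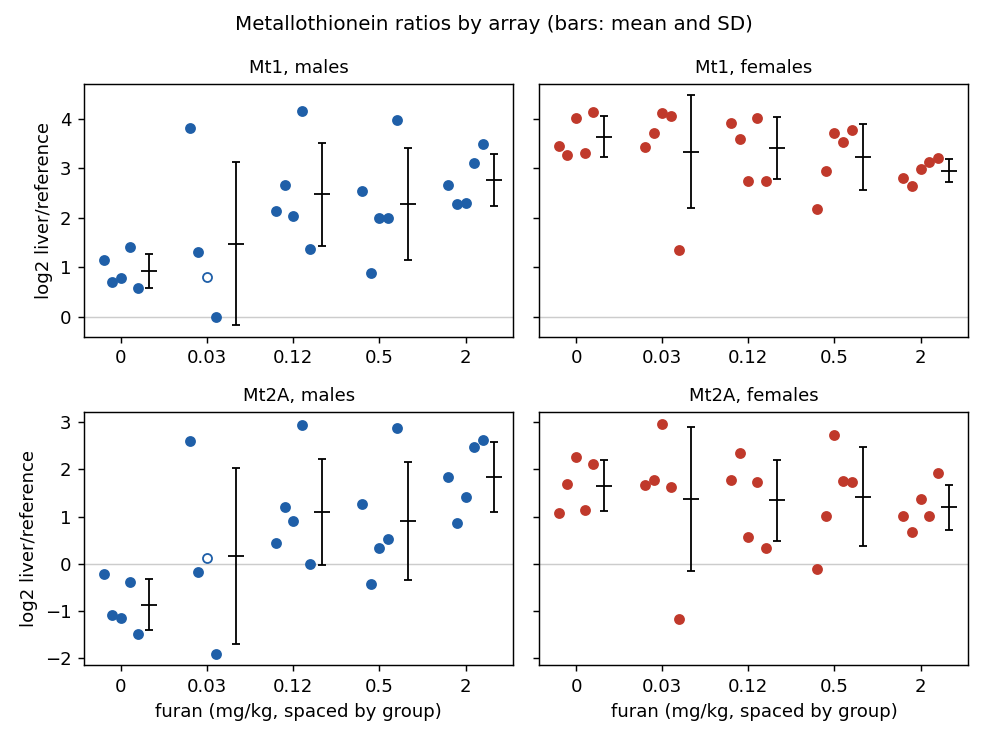
Log2 liver/reference ratio (vertical axis) of Mt1 (top) and Mt2A (bottom) on each array by furan dose in mg/kg (horizontal axis), for males (left) and females (right), with the mean and SD of each group as black bars and the dim array as an open circle. The control males, at 0.57 to 1.40 for Mt1, lie below all males at 2 mg/kg, at 2.28 to 3.48, and below all control females, at 3.27 to 4.14.

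Mt1 codes for metallothionein 1, and its probe was above background in liver on all 49 arrays. The ratios of the 5 control males were 1.15, 0.70, 0.77, 1.40 and 0.57, a mean of 0.92 ± 0.35 (SD, n = 5). Those of the 5 males at 2 mg/kg were 2.65, 2.28, 2.30, 3.11 and 3.48, a mean of 2.76 ± 0.52 (SD, n = 5). All 5 treated males lay above all 5 controls, and the groups did not overlap. With slide as a block Mt1 rose by a log2 change of 2.27 ± 0.46 (SE, 95% interval 1.34 to 3.20), a 4.83-fold rise, with a limma adjusted p of 0.000943. On the 3 slides that held a male of each kind the treated male was higher by 1.96, 0.89 and 2.90.

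Mt2A codes for the other widely expressed metallothionein, and its probe, printed in 10 spots, was also above background on all 49 arrays. The ratios of the control males were -0.21, -1.07, -1.15, -0.39 and -1.49, a mean of -0.86 ± 0.54 (SD, n = 5). At 2 mg/kg they were 1.85, 0.86, 1.41, 2.47 and 2.62, a mean of 1.84 ± 0.73 (SD, n = 5). Again the groups did not overlap, with the lowest treated male above the highest control by more than the SD of either group. Mt2A rose by a log2 change of 3.13 ± 0.63 (SE, 95% interval 1.85 to 4.40), 8.73-fold, with a limma adjusted p of 0.000926, and by 2.68, 1.81 and 4.11 within the 3 shared slides. Its dimmer probe rose by 2.51 ± 0.50 (SE), with a limma adjusted p of 0.000823, and its control males were tightly grouped between -0.70 and -0.40. In this comparison 3 of the 7 member probes were called, all 3 upward and all of the metallothioneins, where 3.81% of all probes were called. Mt1 and Mt2A are close paralogs, and how far RNA of the one binds probes of the other was not tested.

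Bile duct markers moved in the same comparison: of the 6 measured, Krt19 and Epcam were called upward at 2 mg/kg in males, by 0.76 and 0.92. Cftr was called too but is not counted, since it passed the filter only through these males, with 4 of 5 arrays above background against 2 of 5 in control males. Krt19 ran from -0.63 to 0.38 in control males and from 0.16 to 1.53 in males at 2 mg/kg. Epcam ran from -1.56 to -0.67 and from -1.12 to 0.62, so the groups overlapped in both. Of 3 red cell markers 1, Slc4a1, was called downward, at -0.71, which was also their median. The part of these cells in the metallothionein values was not tested.

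At the lower doses the males were widely scattered. At 0.5 mg/kg the Mt1 ratios were 2.54, 0.88, 2.00, 1.99 and 3.98, with 4 of 5 above all controls, and the Mt2A ratios were 1.28, -0.43, 0.33, 0.52 and 2.87, also with 4 of 5 above. Male 63 lay within the controls for both genes and male 70 lay far above them. The changes were 1.94 ± 0.46 (SE) for Mt1 and 2.41 ± 0.64 (SE) for Mt2A, with limma adjusted p of 0.0722 and 0.119, so that 0 of 7 member probes were called and 4 had an unadjusted p under 0.05. Of all probes, 0.142% were called at this dose and 8.28% had such a p.

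At 0.12 mg/kg the Mt1 ratios were 2.13, 2.65, 2.04, 4.15 and 1.36, and only male 52 lay within the controls. The Mt2A ratios were 0.44, 1.21, 0.90, 2.94 and 0.00, all 5 above the highest control. Male 48 had the highest ratio of both genes among all males. The changes of 1.82 ± 0.45 (SE) and 2.21 ± 0.62 (SE) had limma adjusted p of 0.0726 and 0.148. Here 0 of 7 member probes were called and 3 had an unadjusted p under 0.05, where 0.17% of all probes were called and 4.82% had such a p.

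At 0.03 mg/kg the 4 males gave Mt1 ratios of 3.81, 1.31, 0.79 and -0.01, and Mt2A ratios of 2.61, -0.16, 0.13 and -1.90. Male 22 was far above the controls for both genes and male 27 below all of them. The changes were 0.95 for Mt1 and 1.47 for Mt2A with limma adjusted p of 0.231 and 0.177, and without the dim array of male 26 they were 1.24 and 1.59, each with an adjusted p of 0.9997. Male 22 carried much of each change, which was 0.29 for Mt1 and 0.73 for Mt2A without that rat, and 1.31 and 2.01 without male 27. At this dose 0 of 7 member probes and 0% of all probes were called by limma, and 3 member probes had an unadjusted p under 0.05, as did 24.4% of all probes.

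Calls of Mt1 in males at 0.12 and 0.5 mg/kg depend on the dim array, the slide term and the normalization. Without the dim array Mt1 was called at 0.5 mg/kg (1.98, limma adjusted p of 0.0331) and at 0.12 mg/kg (1.82, 0.0425). With that array kept, Mt1 was called at 0.12 mg/kg with slide as a random block and at 0.5 mg/kg with median centring. Array weights gave a call at both doses. A test of any dose effect across the 4 male doses, limma's moderated F test, called 3 of 7 member probes, Mt1 and both of Mt2A, with adjusted p of 0.00387, 0.00709 and 0.00567, beside 12.1% of all probes. Without the dim array Slc30a1 passed it as well, its adjusted p going from 0.0863 to 0.0029. Without a slide term the F test passed neither gene (0.158 for Mt1 and 0.0914 for Mt2A), nor without slide and dim array (0.155 and 0.0713), and the authors' values with no slide term gave 0.113 and 0.0302.

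**Figure D2:**
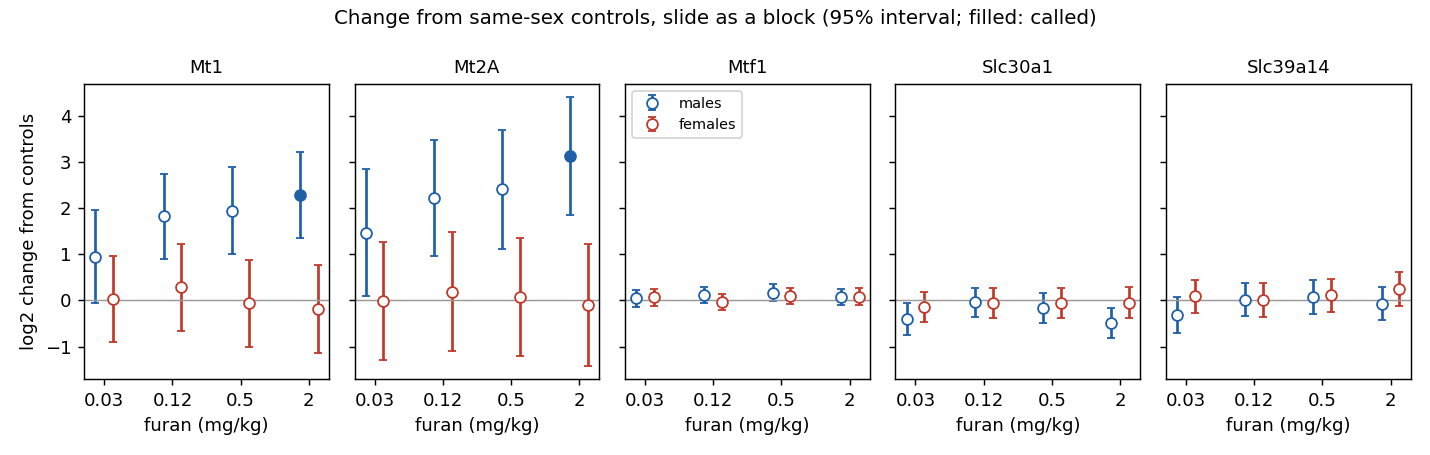
Log2 change from the controls of the same sex (vertical axis) at each furan dose in mg/kg (horizontal axis) for the 5 members, males in blue and females in red, with slide as a block and 95% intervals, filled where called. Mt1 and Mt2A in males stand at 2.27 and 3.13 at 2 mg/kg, while the other members lie between -0.48 and 0.25 at that dose.

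Female ratios of Mt1 were high from the start. The 5 control females had 4.14, 3.45, 3.27, 4.01 and 3.31, and the 5 females at 2 mg/kg had 2.79, 2.64, 2.98, 3.12 and 3.21. All 5 treated females lay below all controls, by 0.69 in the means, and within the 2 slides that held a female of each kind the treated female differed from the control by -1.02 and -0.63. In the fit with slide as a block, however, the change was -0.19 (95% interval -1.15 to 0.77) with a limma adjusted p of 0.893, and without slide it was -0.69 with 0.395. The non-overlap therefore did not pass a test in either fit.

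The Mt2A ratios were 2.11, 1.08, 1.69, 2.26 and 1.15 in control females and 1.01, 0.68, 1.38, 1.01 and 1.93 at 2 mg/kg. These groups overlapped. The change was -0.10 (95% interval -1.41 to 1.22, limma adjusted p of 0.961), an interval that still holds a doubling in either direction. At 2 mg/kg 0 of 7 member probes were called in females, 0 had an unadjusted p under 0.05, and of all probes 0.657% were called and 17.6% had such a p.

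Between these doses the female means of Mt1 were 3.33 at 0.03, 3.40 at 0.12 and 3.22 at 0.5 mg/kg. The values of Mt2A there ran from -1.17 to 2.97, with a mean between 1.35 and 1.43 in each group. Female 32 at 0.03 mg/kg had the lowest female ratio of both genes, 1.35 for Mt1 and -1.17 for Mt2A, close to the control males in each. At 0.03, 0.12 and 0.5 mg/kg limma called 0 of 7 member probes in females, with 0 at an unadjusted p under 0.05, beside calls of 0%, 0.00566% and 0.017% of all probes and such a p in 4.42%, 6.04% and 11.4%. The F test over the female doses likewise called 0 of 7, with 0 at an unadjusted p under 0.05, beside 0.804% of all probes called and 13.3% at such a p.

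Control males and control females were set apart by the metallothioneins more than by any other member. For Mt1 every control male lay below every control female, and the difference was -2.82 ± 0.44 (SE), or 7.08-fold lower in males, with a limma adjusted p of 1.57e-05. Within the 4 slides that held controls of both sexes the male minus female difference was -3.24, -2.99, -2.61 and -2.05. For Mt2A every control male likewise lay below every control female, with a difference of -2.70 ± 0.61 (SE), 6.49-fold, and a limma adjusted p of 0.00186, and the dimmer probe differed by -2.52 (0.000268). Among the controls 3 of 7 member probes were called, all lower in males, beside 5.51% of all probes. Markers of other cell types differed too, with 1 of 7 called lower in males for Kupffer cells (Adgre1, at -0.91, list median -0.45), 1 of 4 for endothelium (Lyve1, at -0.96, median -0.21), 1 of 2 for neutrophils (S100a9, at -0.65, median -0.47) and 1 of 3 for red cells (Slc4a1, at -1.34, median -0.0014). Of 10 hepatocyte markers 1, Ttr, was called higher in males, at 0.66, with a list median of 0.14, and their part in the difference was not tested.

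At 2 mg/kg the ratios of the sexes overlapped in both genes, and no difference passed the test. The male minus female difference was -0.36 (95% interval -1.27 to 0.54) for Mt1 and 0.53 (-0.71 to 1.77) for Mt2A, with limma adjusted p of 0.614 and 0.594. At that dose 0 of 7 member probes were called between the sexes, 3 had an unadjusted p under 0.05, and of all probes 5.69% were called and 29.2% had such a p.

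Whether furan acted differently in the sexes was tested as an interaction, the male change minus the female change. At 2 mg/kg it was 2.46 ± 0.63 (SE) for Mt1 and 3.22 ± 0.87 (SE) for Mt2A, with limma adjusted p of 0.0864 and 0.102, so that 0 of 7 member probes were called and 3 had an unadjusted p under 0.05, where 0.108% of all probes were called and 14.6% had such a p. Without the dim array, which lies in neither of the groups compared but enters the shared spread, the interaction was called for both, at 2.52 (adjusted p of 0.0347) and 3.25 (0.0444). At 0.5 mg/kg it was 2.00 and 2.33 with limma adjusted p of 0.709 and 0.777, with 0 of 7 member probes called, 4 at an unadjusted p under 0.05, and 0% of all probes called with 5.67% at such a p.

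The 2 metallothioneins moved together from rat to rat. Over 23 male arrays, the dim one left out, Pearson's r between Mt1 and Mt2A was 0.98 (Spearman's rho 0.98), and it was 0.98 after the mean of each dose group was taken off. Over the 25 female arrays r was 0.90 (rho 0.83), and 0.79 without the 2 arrays whose Mt2A ratio was farthest from the median. The same rats were high or low in both genes, including male 22, male 48 and male 70 at the top. The arrays share their slides and the reference RNA, and the 2 genes are paralogs. The 2 Mt2A probes had an r of 0.97 in both sexes.

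**Figure D3:**
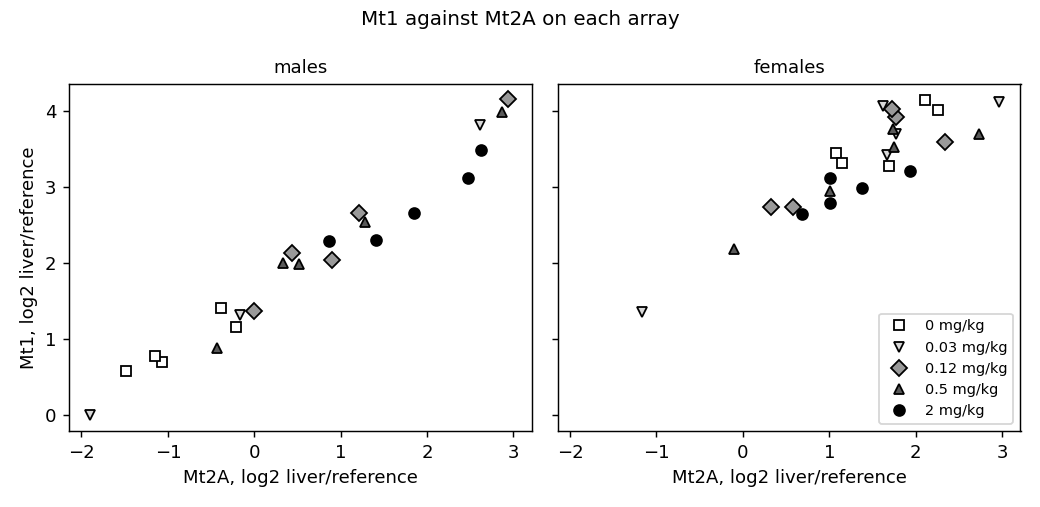
Log2 liver/reference ratio of Mt1 (vertical axis) against that of Mt2A (horizontal axis) on each male array but the dim one (left, 23 arrays) and each female array (right, 25 arrays), by furan dose. The points follow a line in both sexes, with r of 0.98 and 0.90, and the control males lie at its lower end.

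The 5 gene symbols whose ratio followed Mt2A most closely over the male arrays were Mt1 and then, well behind, Cd38, Cs, Fgf21 and Atp5if1, with r of 0.74, 0.74, 0.71 and 0.71. Cd38 is an enzyme that breaks down NAD, Cs is citrate synthase, Fgf21 is a hormone that the liver releases on fasting and under stress, and Atp5if1 inhibits the mitochondrial ATP synthase. In females the same pairs had r of 0.28, 0.09, 0.03 and 0.16, and Mt1 alone kept a high value. Of these 4, Fgf21 and Atp5if1 were called in males at 2 mg/kg, at 1.497 (limma adjusted p of 0.025) and 0.73 (0.00615). Cs, at 0.46 (0.00065), passed the p but not the 1.5-fold limit. All were picked for their r over male arrays that include the controls and the males at 2 mg/kg. A change between those groups, and a lower r in females, is therefore partly fixed by the choice. Cd38 passed the filter only through the control females. It was above background in 2 of 5 control males and 3 of 5 males at 2 mg/kg, so its r in males rests largely on signal near background.

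Slc30a1 makes ZnT1, the exporter at the cell surface. Control males had ratios of 1.95, 1.91, 1.96, 2.13 and 1.26, and males at 2 mg/kg had 0.90, 1.36, 1.34, 1.62 and 0.78. Male 6 lay far below the other controls and within the treated males, so that the groups overlapped. The change was -0.48 ± 0.16 (SE, 95% interval -0.81 to -0.16) with a limma adjusted p of 0.0374, a 1.40-fold difference that is under the 1.5-fold limit and was not called. It opposed the change of the metallothioneins in the same rats.

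In females Slc30a1 stood at 2.14, 2.12, 1.78, 2.04 and 2.13 in controls and at 1.33, 1.69, 1.61, 1.60 and 1.53 at 2 mg/kg. All 5 treated females lay below all controls, yet the change with slide as a block was -0.05 (95% interval -0.38 to 0.29, limma adjusted p of 0.928), and without slide it was -0.49 (0.207). Its ratio did not differ between control males and control females (-0.09, 95% interval -0.40 to 0.22) beyond the spread of the arrays. At 2 mg/kg the male minus female difference was -0.53, with a limma adjusted p of 0.0207 but again under 1.5-fold.

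Slc39a14 makes ZIP14, the importer. Its brighter probe read 1.44, 1.55, 2.13, 1.57 and 1.32 in control males and 0.97, 1.54, 1.55, 1.76 and 1.16 at 2 mg/kg, and the groups overlapped. The change was -0.07 (95% interval -0.43 to 0.29, limma adjusted p of 0.836). In females the means were 1.94 ± 0.17 (SD, n = 5) in controls and 1.76 ± 0.35 (SD, n = 5) at 2 mg/kg, with a change of 0.25 (-0.12 to 0.61) once slide was in the fit. The dimmer probe gave -0.38 (-0.78 to 0.03) in males and 0.02 (-0.40 to 0.44) in females, and the probes differed in sign between control males and control females, at -0.19 and 0.28. At 2 mg/kg the male minus female difference of the brighter probe was -0.50 (95% interval -0.85 to -0.16), with a limma adjusted p of 0.0448 but under 1.5-fold, and its sign was the same on all 4 slides that held both sexes (-0.47, -0.64, -0.47 and -0.31). The dimmer probe gave -0.12 (adjusted p of 0.721) there.

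Mtf1, the zinc-sensing regulator, was the dimmest member: in liver it stood clear of the background on 29 of the 49 arrays, among them 4 of 5 control males and 2 of 5 males at 2 mg/kg. Control males read 0.13, 0.60, 0.40, 0.34 and 0.16, and males at 2 mg/kg read -0.05, 0.28, 0.45, 0.33 and 0.14. The groups overlapped. The change was 0.07 (95% interval -0.10 to 0.25, limma adjusted p of 0.621) in males and 0.08 (-0.11 to 0.26, 0.728) in females, where 2 of 5 arrays at 2 mg/kg were above background. With so few arrays above background these intervals say little about the transcript. MTF-1 responds to zinc through its protein, which arrays do not measure.

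**Figure D4:**
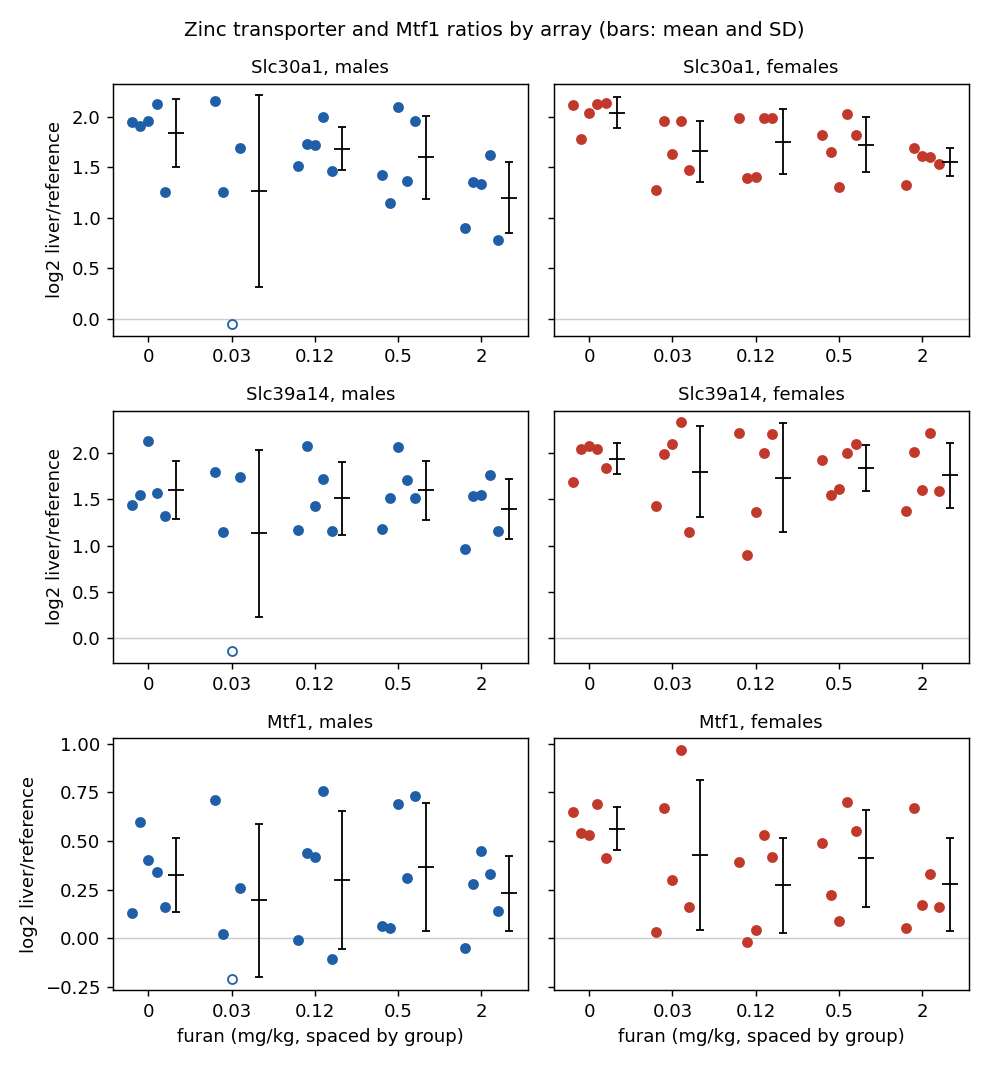
Log2 liver/reference ratio (vertical axis) of Slc30a1, Slc39a14 and Mtf1 on each array by furan dose in mg/kg (horizontal axis), males left and females right, with the mean and SD of each group as black bars and the dim array as an open circle. The 5 males at 2 mg/kg lie at 0.78 to 1.62 for Slc30a1 and the 5 control males at 1.26 to 2.13, and the groups of Slc39a14 and Mtf1 overlap at all doses.

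These 3 genes followed each other across arrays, with r between 0.65 and 0.82 within a sex, and followed Mt1 and Mt2A weakly, with r between -0.07 and 0.41. The arrays share slides, and in the random-block fit the correlation within a slide, over all probes, was 0.54.

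The wider zinc transporter families changed little in males. Of 10 SLC30 exporters 8 were tested and of 14 SLC39 importers 10, and at 2 mg/kg in males limma called 0 of either, with 3 and 0 at an unadjusted p under 0.05, where 27.4% of all probes had such a p. Their median log2 changes were -0.15 and -0.06, where the median over all probes was -0.02. At 0.03, 0.12 and 0.5 mg/kg 0 were called in either sex.

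**Figure D5:**
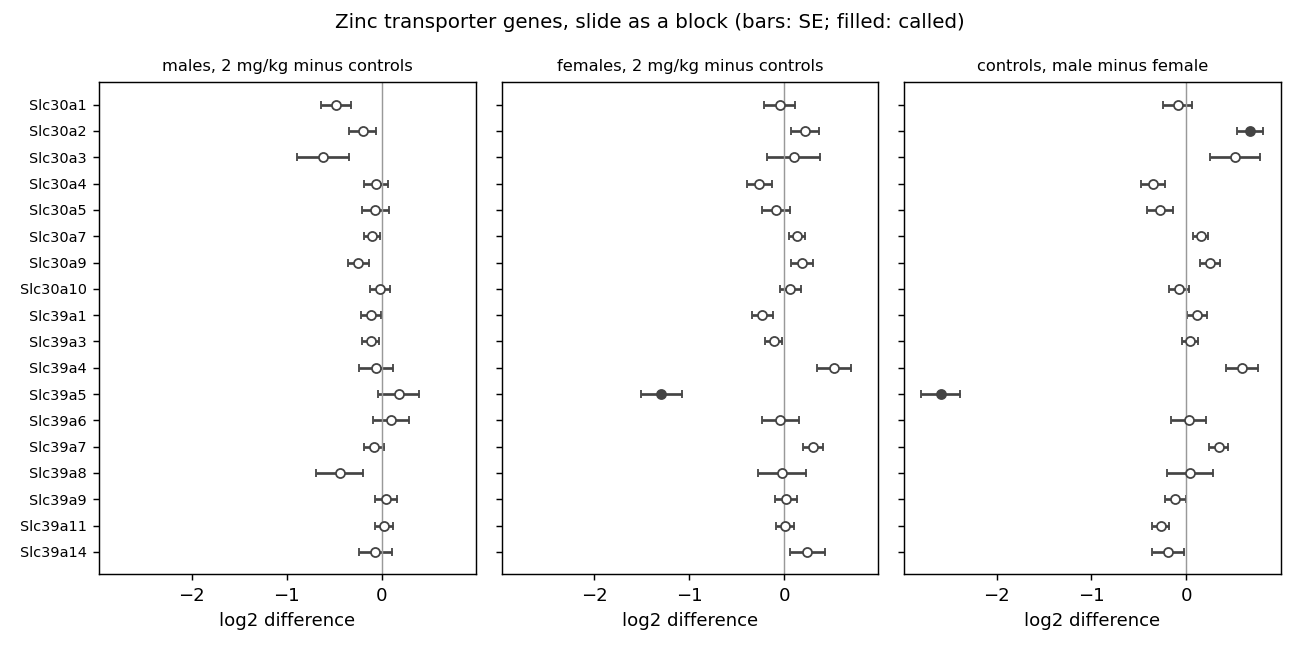
Log2 difference (horizontal axis) of the 18 zinc transporter genes tested, for males and for females at 2 mg/kg against their controls and for control males minus control females, with slide as a block, bars of 1 SE, and filled circles where called. Slc39a5 stands alone at -1.29 in females at 2 mg/kg and at -2.59 between the sexes. Slc30a2 passed the filter only through the control males, where it was above background on 4 arrays against 0 in control females, and its point there is no evidence of a difference.

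The exception was Slc39a5, which makes ZIP5, a zinc importer known from the basolateral membrane of gut and pancreas cells. In females its ratio was 2.49, 2.34, 2.44, 2.02 and 2.21 in controls and 1.31, 1.02, 1.09, 0.81 and 1.42 at 2 mg/kg, with no overlap. It fell by 1.29 on the log2 scale (95% interval -1.74 to -0.84), with a limma adjusted p of 0.00153, and was the only importer called in females, where the median change over the 10 importers was -0.00. Control males, at -0.57 to 0.04 and above background on 4 of 5 arrays, lay below every control female, with a difference of -2.59 (limma adjusted p of 6.46e-12). In males at 2 mg/kg the change was 0.18 (adjusted p of 0.623), and the interaction of 1.47 was called (0.0292), but in 5 of 11 alternative fits and 8 of 20 fits without 1 array. Its fall in females was called in all 11 alternatives and all 10 fits without 1 array.

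Markers of the exocrine pancreas, which also makes ZIP5, were read on the same arrays. Of the 10 named on the array 5 were tested. Cpa1, a carboxypeptidase, was above background on all 5 control female arrays and on 0 of 5 control male arrays. It passed the filter only through the female groups, so its call between control sexes is not counted. The other 4 were not called there. Cpa1 averaged 5.79 ± 0.64 (SD, n = 5) in control females and 4.75 ± 0.63 (SD, n = 5) in females at 2 mg/kg, without a slide term. With slide as a block, limma called 0 of the 5 tested markers in females at 2 mg/kg. An unadjusted p under 0.05 was reached by 3 of them and by 17.6% of all probes. The 5 tested were above background on 14 to 42 arrays. Of the markers that did not pass the filter, Prss1 and Pnlip were above background on 0 arrays, Cela3b and Clps on 1 each and Cel on 4. With no array above background for Prss1 and Pnlip, whether their probes can detect pancreas RNA is not known. The part of pancreas RNA in the Slc39a5 values was not tested. Male 68 at 0.5 mg/kg had 8 of the 10 markers above background and a Slc39a5 ratio of 1.20, against at most 0.30 in the other males. Its array had 69.6% of all liver spots above background, where the other arrays of slide 7 had 51.2% to 58.3%. Its share of reference spots above background, 84.3%, was the largest of any array. The mean log2 ratio over its 5 tested markers was -0.17, where the males of its dose ran from -0.41 to -0.099.

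Neither of the remaining metallothionein genes passed the filter: Mt3, the brain form, and Mt4, the form of stratified epithelium, were each above background on 2 of 49 arrays. Of 6 other genes known as MTF-1 targets, 0 were called at 2 mg/kg in males or in females, with 2 and 0 at an unadjusted p under 0.05 in limma. Of all probes, 27.4% in males and 17.6% in females had such a p. The median change of the 6 in males was 0.24, against -0.02 over all probes. In controls Csrp1, a cytoskeletal LIM protein, was higher in males by 0.87 and Selenow, a selenoprotein, was lower, at -0.93. Of 10 genes that handle copper, the other metal that metallothioneins bind, 0 were called at 2 mg/kg in either sex. An unadjusted p under 0.05 was reached by 2 in males and 0 in females, beside the same 27.4% and 17.6% of all probes.

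Genes of other signals known to raise metallothioneins were read from further lists. For scale, limma called 3.81% of all probes in males and 0.657% in females at 2 mg/kg. An unadjusted p under 0.05 was reached by 27.4% and 17.6% there. In males 0.17% of all probes were called at 0.12 mg/kg and 0.142% at 0.5 mg/kg. Of 8 glucocorticoid response genes tested, 2 rose and 3 fell in males at 2 mg/kg: Fkbp5, a cochaperone of the glucocorticoid receptor, rose by 1.28 and Zbtb16, a zinc finger repressor that was above background in 1 of 5 control males, by 1.84, while Sgk1 and Dusp1, a kinase and a phosphatase of stress signalling, changed by -1.37 and -1.40 and Tat, an enzyme of tyrosine breakdown, by -1.05. Fkbp5 and Zbtb16 were also called upward in males at 0.12 mg/kg (1.29 and 2.14), where Klf9, another factor induced by the receptor, was at 0.96 and Sgk1 at -1.61, and at 0.5 mg/kg (1.27 and 1.91), where Dusp1 was at -1.39. Zbtb16 was called in females at 2 mg/kg, by 1.66. Of 17 acute phase and interleukin-6 response genes, A2m, a protease inhibitor of plasma, was called at 2 mg/kg in males, by 1.61, while the median of the list was -0.43, against -0.02 over all probes, and 9 had an unadjusted p under 0.05. In females limma called 0 of them, with 2 at such a p and a median of -0.0002. Of 8 NRF2 targets tested, 4 rose in males at 2 mg/kg, Nqo1 by 0.74, Srxn1 by 0.84, Akr7a3 by 2.92 and Gstp1 by 2.70. In females 1 of them, Akr7a3, rose, by 1.77. Whether any of these signals acts on Mt1 or Mt2A was not tested.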

How the data were processed

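Liver RNA (Cy5) and a universal rat reference RNA (Cy3) were hybridised together on 2-colour arrays, with no dye swap in the labels, so a dye effect of a probe enters every ratio alike. Per the file headers, the deposited scanner files came from Feature Extraction 10.7.3.1 and hold median pixel intensity for spot and background in each channel, the scanner's log10 ratio, and other columns of 0 or 1 marks for spots above background, saturated or outlying. The authors also deposited a table of normalized log2 ratios, with column medians from -0.06 to -0.03, whose background correction is not stated. Of its 49 columns, 48 matched an array of their own group best but 7 the array they are named for, so it was used only as an alternative, by group and with no slide term.

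Groups came from the labels. In limma 3.58.1 (R 4.3.3), background was corrected by normexp with an offset of 50, each array was normalized by loess with control spots at weight 0, outlying spots were dropped, and spots of a probe were averaged. Of 30367 probes, those well above background in liver on at least 4 arrays of a group were kept, 17661 in all, and 18004 had a symbol through their RefSeq accession, as the annotated names are old. Group means with slide as a fixed block were fitted over 49 arrays, with empirical Bayes moderation, Benjamini-Hochberg adjustment over all probes kept, and calls at an adjusted p of at most 0.05 and at least 1.5-fold. Coordinates are of GRCr8, and the scanner files' build, rn4, was not used. The number of arrays limits the precision. The p-values rest on the spread between rats that remains after group and slide, pooled over all groups and moderated across probes. The pipeline was tested on simulated data.

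Members, gene lists and tests were chosen with earlier results of these data known. Members were named by the list, and other genes where called, where a list's markers moved with a result, or as the 5 symbols most correlated with Mt2A in males. Alternatives were median centring, the scanner's ratio, the liver channel alone, the authors' table and the mean over the probes of a gene. Others were no or a random slide term, array weights, no dim array, no filter, and leaving out each array. All but the scanner's ratio and the authors' table kept the normexp correction.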

Additional observations from a re-analysis of the deposited data

Results flagged for a closer look

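In each group of 4 or 5 arrays, 70 in all over the 7 member probes, the gap of the highest or lowest array to its neighbour was set against the range of the group. It passed Dixon's 95% limit in 4 groups, or 5.71%, where chance gives about 1 in 20.

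Mt1 of female 32 at 0.03 mg/kg, at 1.35, lay far below the other 4 females of its group, at 3.42 to 4.12, and Mt2A of the same rat was the lowest of its group as well. Slc30a1 of control male 6, at 1.26, lay below the other control males, at 1.91 to 2.13. Slc30a1 of control female 4, at 1.78, lay below the other control females, at 2.04 to 2.14. The dimmer Slc39a14 probe of male 22 at 0.03 mg/kg, at 0.74, lay above the other males of its group, the same rat whose Mt1 and Mt2A ratios were highest there. That probe was above background on only 2 of the 4 arrays. Males 25 and 26, at 0.05 and 0.01, were not above it, so this gap rests partly on signal near background.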

How the results depend on the processing

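The rise of Mt1 and of Mt2A in males at 2 mg/kg was called in all 11 alternatives (1.84 to 2.40 and 2.70 to 3.30) and in all 10 fits without 1 of the 10 arrays compared (2.06 to 2.73 and 2.94 to 3.53), and so was their lower ratio in control males (-3.13 to -2.56 and -3.00 to -2.30 over the alternatives). The interaction at 2 mg/kg passed the threshold without the dim array (Mt1 2.52, Mt2A 3.25) and with array weights (2.59 and 3.41), with 3 member probes called in each. At 0.12 mg/kg in males the count of member probes called was 1 with slide as a random block, 1 without the dim array and 3 with array weights, and at 0.5 mg/kg it was 2 without the dim array, 1 with median centring and 3 with array weights. At 0.03 mg/kg in males it ran from 0 to 1 when 1 array was left out, with the 1 coming without male 22. Slc30a1 in males at 2 mg/kg was called with no slide term and no dim array (-0.64).

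Small changes that no fit called turned sign. Without a slide term, with all arrays or without the dim one, the values were -0.29 for Mtf1 and -0.18 for Slc39a14 in females at 2 mg/kg, -0.094 for Mtf1 in males, and 0.19 for its interaction. The authors' table, set against the groups without a slide term as a choice made after seeing the data, gave -0.20 for Mtf1 and -0.23 for Slc39a14 in females, -0.037 for Mtf1 in males, and 0.16 and 0.030 for their interactions. The Mtf1 interaction was 0.021 with slide as a random block, 0.011 without the dim array and 0.035 with median centring, which gave 0.11 for Slc39a14 in males. The liver channel alone gave -0.026 for Mtf1 in males and 0.0027 for Slc30a1 in females at 2 mg/kg, and 0.034 for Slc30a1 and 0.019 for Slc39a14 between control sexes. The scanner's ratio gave 0.00099 for Slc30a1 and the mean over probes 0.046 for Slc39a14 between control sexes. Without 1 array, at 2 mg/kg, Mt2A in females ran from -0.44 to 0.23, Slc30a1 in females from -0.11 to 0.065, Slc39a14 in males from -0.14 to 0.025 and the Mtf1 interaction from -0.076 to 0.065. The causes were not tested.

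No paired analysis was possible because animal numbers shared by the sexes belong to different rats and dose groups of a sex share none. Mtf1 was limited by its signal, above background on 29 of 49 arrays, and the 0.03 mg/kg males by 4 arrays of which 1 was dim.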
